A study of Mus musculus with 10 samples.

Results

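The miR-181 family was described from the 5p arms mmu-miR-181a-5p, mmu-miR-181b-5p, mmu-miR-181c-5p and mmu-miR-181d-5p, chosen by name from a table of 1340 mature miRNAs in the RPE/choroid/sclera of the mouse eye. All 4 members were present, and they are written below without the mouse prefix. The table holds 10 libraries, 5 from right eyes and 5 from left eyes, which share the title numbers 61, 64, 65, 66 and 68. Both groups come from wild-type mice of the C57BL/6J strain, aged 34 days (P34), and in each animal 1 eye had carried a goggle with a -20 D lens for 10 days from day 24 while the contralateral eye had none. The labels give the side and not the eye that wore the lens, so every comparison between eyes here is of right with left, and a lens effect cannot be read from it. The labels do not say whether tissue was pooled across animals or whether the libraries of a side are separate animals, so p-values measure only the spread between these libraries. The tissue is bulk, so fewer cells of a type and less RNA per cell cannot be told apart.

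A miRNA silences mRNAs that pair with its seed, the short stretch from base 2 to base 8 of the mature strand, and miRNAs with one seed share most of their targets. The miR-181 seed is found in 3 loci that each hold a pair of hairpins. In mice miR-181a sets the sensitivity of the T cell receptor by lowering phosphatases, miR-181b restrains NF-kB signalling in endothelium by lowering the importin that carries it to the nucleus, and miR-181a and miR-181b limit mitochondrial biogenesis and mitophagy in retinal neurons. In rat heart cells miR-181c has been found in mitochondria, where it lowers a subunit of the respiratory chain.

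The mature sequences show what makes these members a family and how alike their reads are. They are RefSeq's for GRCm38.p6, the build of the deposited table, written 5′ to 3′ with the seed in capitals.
miR-181a-5p: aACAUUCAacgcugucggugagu
miR-181b-5p: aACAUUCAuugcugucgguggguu
miR-181c-5p: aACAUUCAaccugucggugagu
miR-181d-5p: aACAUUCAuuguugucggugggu
All 4 carry the seed ACAUUCA, and of 1679 mature names in RefSeq's table no other carries it. Positions are counted from 1 at the 5′ end of the first miRNA named. From miR-181a-5p to miR-181b-5p the substitutions are A9U, C10U and A21G, with 1 base more at the 3′ end. Aligned with miR-181a-5p, miR-181c-5p has the deletion G11del and no substitution. From miR-181b-5p to miR-181d-5p there is 1 substitution, C12U, and the last base of miR-181b-5p is missing. The number of mismatches allowed in the authors' alignment was not stated, so the division of reads between miR-181b-5p and miR-181d-5p, and between miR-181a-5p and miR-181c-5p, is uncertain.

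The members come from 6 hairpins on 3 chromosomes. Mir181a-1 (mature miR-181a-5p at chromosome 1, 137966468 to 137966490, plus strand) and Mir181b-1 (miR-181b-5p at 137966650 to 137966673) lie with 120 bases between their mature arms. Both are inside an intron of the non-coding Gm4258 of the same strand and of the antisense lincRNA Gm26936, and Mir181b-1 overlaps an exon of the lincRNA A430106G13Rik. Mir181a-2 (chromosome 2, 38852741 to 38852763, plus strand) and Mir181b-2 (38853845 to 38853868) lie antisense to an intron of the nuclear receptor gene Nr6a1, and Mir181b-2 also lies opposite an exon of the unclassified Gm44144. Mir181c (miR-181c-5p at chromosome 8, 84178924 to 84178945, minus strand) and Mir181d (miR-181d-5p at 84178759 to 84178781) have 103 bases between them, in an intron of the germ cell gene Nanos3 on the same strand, by GENCODE M21. The 5p arms of both miR-181a hairpins are identical, as are those of both miR-181b hairpins. The table lists each once, at chromosome 1, so its signal for miR-181a-5p and miR-181b-5p may hold both loci. The 3p arms differ between loci, and these were the most abundant.
miR-181a-1-3p: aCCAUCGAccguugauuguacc
miR-181a-2-3p: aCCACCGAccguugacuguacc
miR-181c-3p: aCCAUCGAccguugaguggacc
From miR-181a-1-3p to miR-181a-2-3p the substitutions are U5C, inside the seed, and U16C. The seed of miR-181c-3p is that of miR-181a-1-3p, with U16G and U19G outside it.

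The deposited values are a normalised signal, given below in k (units of 1000) where they are large. Library sums were almost equal, between 11878152 and 11879036, but sequencing depth is unknown. At the ranks the members took, the same value stood in every library, apart from a single rank in the range of miR-181d-5p, so a member moves in steps from one rank's value to the next. One library stood apart: right eye 68 had a photoreceptor sum (miR-182-5p, miR-183-5p and miR-96-5p) of 1285 k, against 167 to 449 k in the other 9. RPE markers were present in all libraries, with miR-204-5p and miR-211-5p summing to between 1959 and 1989 k. The value of miR-204-5p was 1931810 in every library, so this narrow range does not show an even RPE content. The photoreceptor markers were measured in all libraries too.

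The family was among the most abundant in this tissue. The 4 members together held 8.05% ± 0.945 of the signal in right eyes and 7.74% ± 0.546 in left eyes (SD, n = 5 each), with the highest share, 9.32%, in right eye 68. Within the family sum, miR-181a-5p made up 85.6% ± 0.966 in right eyes and 85.8% ± 0.815 in left eyes, and miR-181b-5p 8.64% ± 0.986 and 8.31% ± 0.770 in right and left eyes. The share of miR-181c-5p was 4.44% ± 0.253 in right and 4.60% ± 0.704 in left eyes, and that of miR-181d-5p 1.28% ± 0.405 and 1.32% ± 0.357.

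miR-181a-5p, the most abundant member, had 788, 885, 740, 740 and 940 k in right eyes 61, 64, 65, 66 and 68. Left eyes of the same numbers had 788, 788, 885, 740 and 740 k. Only 4 values occurred, those of ranks 3 to 6, and the sides overlapped. By mean signal it stood between miR-26a-5p at 899 k and miR-143-3p at 794 k. The log2 fold change of right over left was 0.05 (95% interval -0.16 to 0.26, adjusted p = 0.967 in limma), a fold of 1.04 with an interval of 0.896 to 1.20.

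miR-181b-5p, the member next in level, had 79.3, 89.7, 79.3, 60.2 and 108 k in right eyes 61, 64, 65, 66 and 68. Left eyes of the same numbers had 79.3, 79.3, 84.5, 79.3 and 60.2 k. Right eye 68 was the highest library and right eye 66 shared the lowest value with left eye 68, so the sides overlapped and number 68 held both ends. The log2 fold change was 0.11 (95% interval -0.28 to 0.50, adjusted p = 0.967 in limma). Without number 68 it was -0.08, and for miR-181a-5p it was then -0.02.

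miR-181c-5p, the member with the shortest mature strand, had 37.0, 46.1, 40.9, 37.9 and 50.7 k in right eyes 61, 64, 65, 66 and 68, and 37.9, 40.9, 39.7, 43.0 and 48.3 k in left eyes. Both eyes of number 68 were above all other libraries, and the sides overlapped. The log2 fold change was 0.01 (95% interval -0.15 to 0.18, adjusted p = 0.985 in limma), the narrowest interval of the 4, from 0.901-fold to 1.13-fold.

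miR-181d-5p, the partner of miR-181c-5p in the Nanos3 intron, had 14.3, 18.7, 9.43, 10.1 and 8.56 k in right eyes 61, 64, 65, 66 and 68, and 14.9, 15.3, 12.7, 11.5 and 6.60 k in left eyes. Both eyes of numbers 61 and 64 were above all other libraries, and both eyes of number 68 were below them. The sides overlapped, with a log2 fold change of -0.0002 (95% interval -0.30 to 0.30, adjusted p = 1 in limma), an interval from 0.811-fold to 1.23-fold. The sign of so small a value has no weight.

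**Figure D1:**
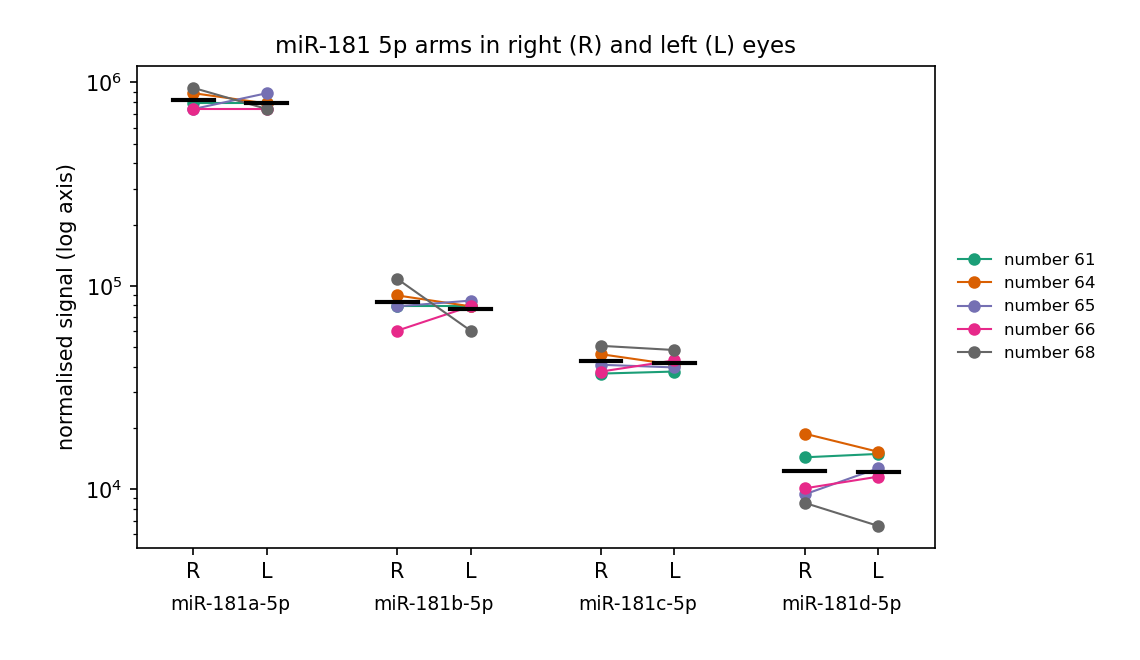
Normalised signal (log axis) of the 4 miR-181 5p arms, with right eyes (R) left of left eyes (L). Each point is 1 library, a line joins the eyes of a title number, and a black bar is the mean of 5 libraries. The members do not overlap each other, and within each member the sides do.

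Of the 588 miRNAs with a mean signal of at least 10, 0% passed an adjusted p of 0.05 between right and left eyes in limma, and 2.21% (13) had an unadjusted p under 0.05. None of the 4 members was in either set. Of the members 3 had a higher and 1 a lower fitted value in right eyes, with a median log2 fold change of 0.03, where 54.6% of all 588 were higher and the median was 0.02.

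The order of levels was the same in all 10 libraries. miR-181a-5p stood 10.2-fold above miR-181b-5p (a log2 difference of 3.34 ± 0.05, SD over 5 numbers), and its lowest library, 740 k, was far above the highest of miR-181b-5p, 108 k. miR-181b-5p stood 1.88-fold above miR-181c-5p (0.91 ± 0.16), with its lowest library at 60.2 k and the highest of miR-181c-5p at 50.7 k. miR-181c-5p stood 3.59-fold above miR-181d-5p (1.84 ± 0.56), with its lowest library at 37.0 k and the highest of miR-181d-5p at 18.7 k. All 3 neighbouring pairs had p = 0.0625 in the exact two-sided sign-flip permutation over the 5 numbers (adjusted p = 0.0625), which is the smallest this design can give. The pairs were set by mean signal in these same libraries, so this p is no separate support for the order. The mature strands differ by at most 2 bases in length, so no scaling by length was made. These folds are of deposited signal, and whether the different sequences were captured equally well was not measured.

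Ratios between members asked whether the makeup of the family differs between sides. None of the 6 ratios differed in the exact sign-flip permutation of the 5 pairs (lowest exact p = 0.375 for miR-181a-5p over miR-181d-5p, all adjusted p = 0.8125). The log2 ratio of miR-181a-5p to miR-181b-5p was 3.32 ± 0.19 in right and 3.37 ± 0.15 in left eyes (SD, n = 5 each), a difference of -0.06. The log2 ratio of miR-181c-5p to miR-181d-5p was 1.85 ± 0.53 in right and 1.84 ± 0.62 in left eyes, a difference of 0.01.

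For miR-181d-5p and miR-181c-5p, title numbers lay further apart than the eyes of a number. The means of the numbers for miR-181d-5p ran from 7578 in number 68 to 17003 in number 64, a span of 9426, while right and left eyes of the same number were at most 3471 apart. For miR-181c-5p the number means spanned 12060, from number 61 at the low end to number 68 at the high end, with right and left at most 5209 apart. For miR-181a-5p the number means spanned 99917 and the eyes were up to 199834 apart, and for miR-181b-5p these values were 14754 and 47981. In limma's F test of the number, 1.19% of the 588 miRNAs (7) passed an adjusted p of 0.05. The count was 0 without the variance trend and without number 61, 64 or 68, 1 without 65 and 22 without 66. No member passed with all numbers in the fit: the adjusted p was 0.0941 for miR-181d-5p, 0.230 for miR-181c-5p, 0.828 for miR-181a-5p and 0.895 for miR-181b-5p. The unadjusted p of miR-181d-5p in this F test was 0.00503, place 29 of 588. That of miR-181c-5p was 0.0583, place 147 of 588, where 23.3% of all 588 had an unadjusted p under 0.05. Its log2 SD over the 10 libraries was 0.45, where the 50 miRNAs nearest to it in mean signal had a median of 0.20 and 8 of them a larger SD. The SD was 0.16 for miR-181c-5p, with 34 of the 50 nearest larger, 0.25 for miR-181b-5p, with 20 of 50 larger, and 0.13 for miR-181a-5p, with 23 of 29 larger.

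**Figure D2:**
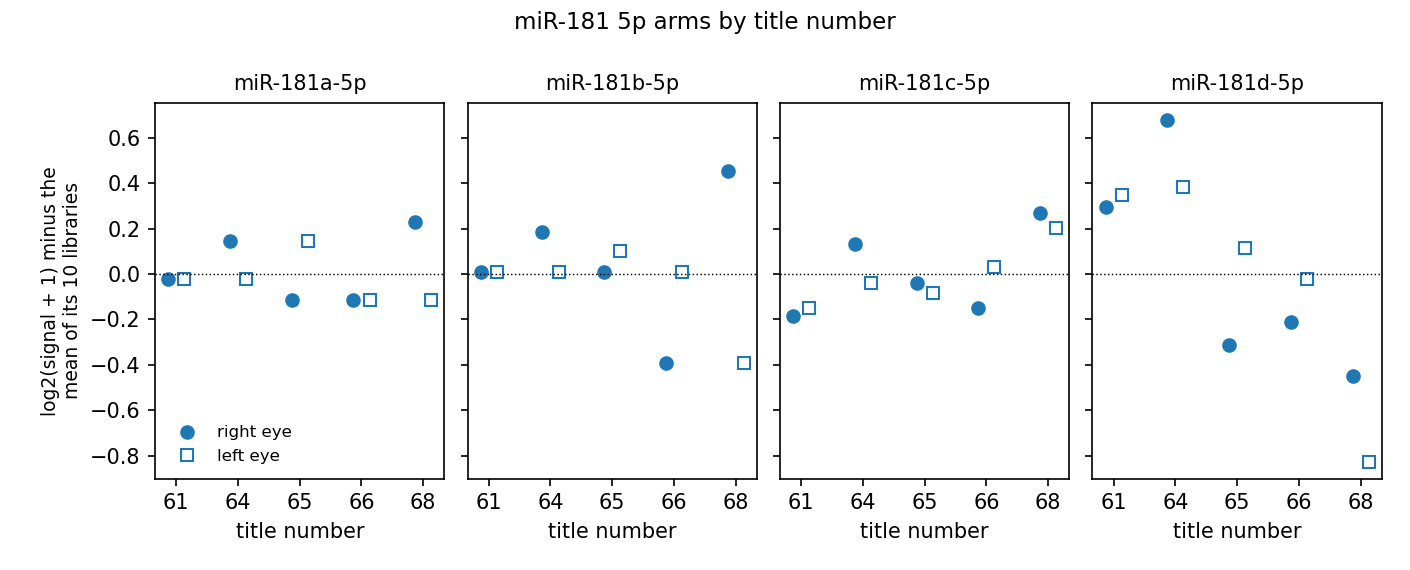
Log2(signal + 1) of each miR-181 5p arm minus the mean of its 10 libraries (vertical axis) for the 5 title numbers (horizontal axis), with right eyes as filled circles and left eyes as open squares. Both eyes of number 68 are the highest for miR-181c-5p and the lowest for miR-181d-5p, while for miR-181b-5p they lie at opposite ends.

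The neighbours of the Nanos3 intron did not keep a steady ratio. The linear ratio of miR-181c-5p to miR-181d-5p was 2.58, 2.46, 4.34, 3.75 and 5.92 in right eyes 61, 64, 65, 66 and 68, and 2.54, 2.68, 3.13, 3.73 and 7.33 in left eyes. It was lowest in numbers 61 and 64 and highest in number 68 on both sides, a 2.98-fold range over the 10 libraries. This was not particular to the pair, since the ratio to miR-181d-5p also ranged 2.64-fold for miR-181b-5p and 2.37-fold for miR-181a-5p, members of other loci. The ratio of miR-181a-5p to miR-181b-5p ranged 1.42-fold, from 8.69 in right eye 68 to 12.3 in right eye 66 and left eye 68. Across the 10 libraries, which share 5 numbers and 1 normalisation, Spearman's rho was 0.88 between miR-181a-5p and miR-181b-5p and -0.38 between miR-181c-5p and miR-181d-5p (0.82 and -0.17 without right eye 68). Between miR-181b-5p and miR-181d-5p, the members that differ by 1 substitution, it was 0.30, and 0.68 without right eye 68. It was no lower between miR-181a-5p and miR-181d-5p, which differ by 4 substitutions, at 0.38, and 0.80 without right eye 68. These values are descriptions and were not tested.

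The 3p arms differ in sequence between hairpins whose 5p arms are identical, though by few bases. The pair miR-181a-1-3p and miR-181a-2-3p differs by 2 substitutions, and miR-181b-1-3p and miR-181b-2-3p by 1, A9U, and 1 base more at the 3′ end, so the division of reads between them is uncertain in the same way. Such an arm is usually degraded when its 5p partner is loaded into Argonaute, and 5 of the 6 passed the filter on mean signal. miR-181a-2-3p, from the Nr6a1 locus, averaged 8777 ± 1213 in right and 8007 ± 360.2 in left eyes (SD, n = 5 each). miR-181a-1-3p, from chromosome 1, averaged 1867 ± 428 in right and 1657 ± 209 in left eyes. In all 10 libraries miR-181a-2-3p was above miR-181a-1-3p, by 3.53-fold in right eye 68 to 5.85-fold in left eye 61. miR-181c-3p averaged 1220 ± 95.6 in right and 1229 ± 89.7 in left eyes. The arms miR-181b-1-3p and miR-181b-2-3p were near the filter, at 25.4 ± 10.6 and 24.9 ± 15.2 in right eyes and 15.9 ± 15.01 and 27.0 ± 24.7 in left eyes. miR-181d-3p had a mean of 8.86 over the 10 libraries and was not tested.

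None of the 5 tested 3p arms passed between right and left eyes in limma, with log2 fold changes of 0.15 for miR-181a-1-3p, 0.12 for miR-181a-2-3p, 1.10 for miR-181b-1-3p, 0.04 for miR-181b-2-3p and -0.01 for miR-181c-3p, and a lowest adjusted p of 0.967. The value of miR-181b-1-3p had a 95% interval of -0.44 to 2.65 and rested on left eye 68, listed at 1.27, and without number 68 it was 0.32. The sides overlapped for all 5. The median of the 5 was 0.12. Between numbers no 3p arm passed the F test, and the lowest adjusted p was 0.0941 for miR-181b-2-3p. This arm had 11.04, 6.06, 39.3, 32.5 and 35.7 in right eyes 61, 64, 65, 66 and 68, and 15.03, 6.17, 34.7, 12.2 and 66.7 in left eyes. Its lowest libraries were thus both eyes of number 64, where miR-181d-5p was highest.

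**Figure D3:**
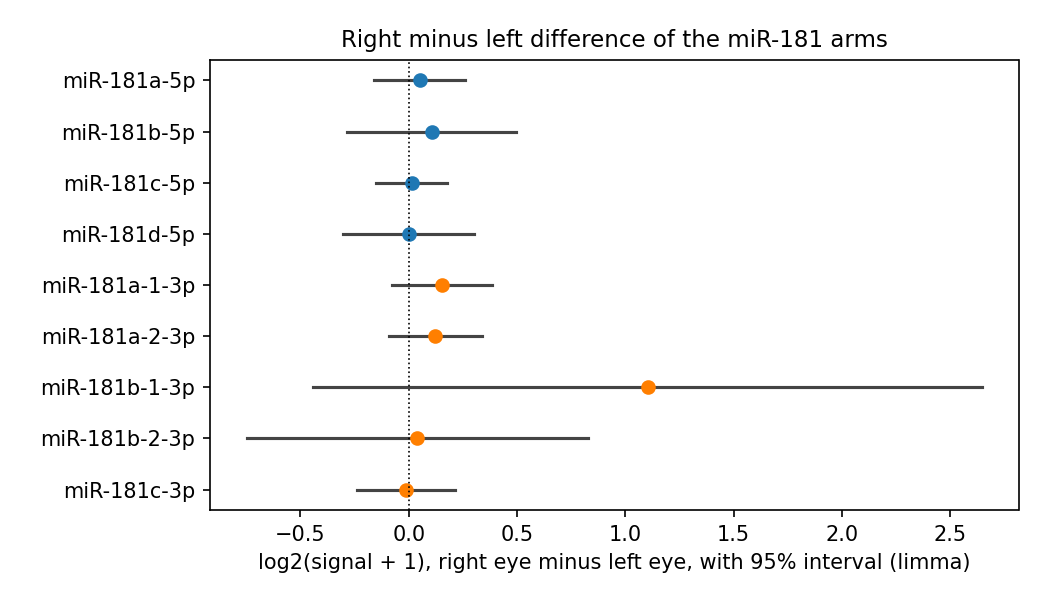
Log2(signal + 1) in right eyes minus left eyes (horizontal axis) with the 95% interval from limma, for the 4 miR-181 5p arms (blue) and the 5 tested 3p arms (orange). All 9 intervals include 0, and the interval of miR-181b-1-3p is the widest.

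The signal of each 5p arm exceeded that of its 3p arms in all 10 libraries. miR-181c-5p was 34.7 ± 2.02 times its 3p arm in right eyes and 34.3 ± 4.58 times in left eyes. miR-181a-5p was 78.1 ± 12.9 times the sum of its 3p arms in right eyes and 81.8 ± 7.48 times in left eyes. For miR-181b-5p the ratio to its summed 3p arms ran from 990 to 3170 in right and from 885 to 3211 in left eyes. For miR-181d-5p it ran from 822 to 2170 in right and from 1027 to 3625 in left eyes. Among 185 pairs of arms, the whole signal of miR-181a-5p or miR-181b-5p was set against each of its 3p arms in turn. By the size of this 5p over 3p, the 5 tested pairs of the family stood at places 6 and 7 (miR-181b), 17 and 31 (miR-181a) and 44 (miR-181c). For miR-181a and miR-181b these ratios are larger than those to the summed 3p arms, so their places are not those of single hairpins. Between right and left eyes 0% of the 185 pairs passed an adjusted p of 0.05 in limma. The lowest adjusted p in the family was 0.757, for miR-181b-5p over miR-181b-1-3p, at a difference of -0.996 on the log2 scale. Between numbers 11.9% of the pairs passed the F test and none of the family's, where the lowest adjusted p was 0.129 for miR-181b-5p over miR-181b-2-3p.

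The miRNAs whose pattern over the 10 libraries was most like each member, by Spearman's rho and with no test, differed from member to member. For miR-181a-5p they were miR-3099-3p (0.89), the neuronal miR-124-3p (0.82) and miR-129-5p (0.82). For miR-181b-5p they were the hypoxia-induced miR-210-3p (0.91) and, from the photoreceptor cluster, miR-183-3p (0.88) and miR-182-5p (0.87). The median rho of 578 miRNAs compared was -0.05 and -0.06 for these members. Without right eye 68 the 6 values were between 0.75 and 0.87. miR-124-3p had 1.75, 5.28, 2.43, 1.55 and 19.1 k in right eyes 61, 64, 65, 66 and 68, and 3.55, 3.77, 7.38, 2.89 and 2.54 k in left eyes. It was thus highest in right eye 68, left eye 65 and right eye 64, the libraries where miR-181a-5p took its highest values.

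Markers of several cell types moved with miR-181a-5p and miR-181b-5p, in both directions. All 3 photoreceptor markers had a positive rho with miR-181a-5p (0.73 to 0.79) and with miR-181b-5p (0.74 to 0.87). Their sum was 167 to 1285 k in right eyes and 243 to 449 k in left eyes, and no marker was at 0 in all libraries of a side. With the photoreceptor sum rho was 0.78 for miR-181a-5p and 0.88 for miR-181b-5p, and 0.69 and 0.83 without right eye 68. Of the 3 neuron markers (miR-124-3p, miR-9-5p and miR-9-3p) only miR-124-3p had a positive rho with them, and that with the neuron sum was 0.29 and 0.21, and 0.01 and -0.11 without right eye 68. The smooth muscle and fibroblast markers (miR-143-3p, miR-145a-5p, miR-199a-3p and miR-214-3p) summed to 836 to 1008 k in right and 842 to 1060 k in left eyes. All 4 had a negative rho with both members, and that of their sum was -0.77 for miR-181a-5p and -0.71 for miR-181b-5p (-0.85 and -0.80 without right eye 68). Most of this sum is miR-143-3p, with a mean of 794 k, which lies next to miR-181a-5p (803 k) in level. A higher rank step for either can push the other to a lower step, so their rho is not free of the normalisation. With the endothelial sum rho was -0.43 for miR-181a-5p and -0.48 for miR-181b-5p (-0.60 and -0.69 without right eye 68). With the leukocyte sum it was -0.50 and -0.48 (-0.69 for both without right eye 68). With the surface epithelium, cornea and lens sum rho was 0.25 and 0.33, and 0.61 and 0.72 without right eye 68. Of these 7 markers 4 had a positive and 3 a negative rho with each member. The part of these cell types in the levels of miR-181a-5p and miR-181b-5p was not tested.

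For miR-181c-5p the most alike were miR-466a-3p and miR-466e-3p (0.84 each), with identical values in every library and means of 13.6, and miR-33-5p (0.82), an intronic miRNA of the sterol regulator Srebf2. For miR-181d-5p they were miR-30c-2-3p (0.97), let-7e-5p (0.96) and let-7c-5p (0.95), and these were between 0.95 and 0.98 without right eye 68. The let-7 family restrains growth and rises as cells mature. let-7c-5p had 404, 404, 154, 195 and 117 k in right eyes 61, 64, 65, 66 and 68, and 404, 404, 226, 226 and 141 k in left eyes. Both let-7 miRNAs are among the 7 that passed the F test between numbers, with adjusted p = 0.0177 for let-7c-5p and 0.0430 for let-7e-5p in limma. Both calls were lost without the variance trend and without number 61, 64 or 68, where 0 miRNAs passed.

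**Figure D4:**
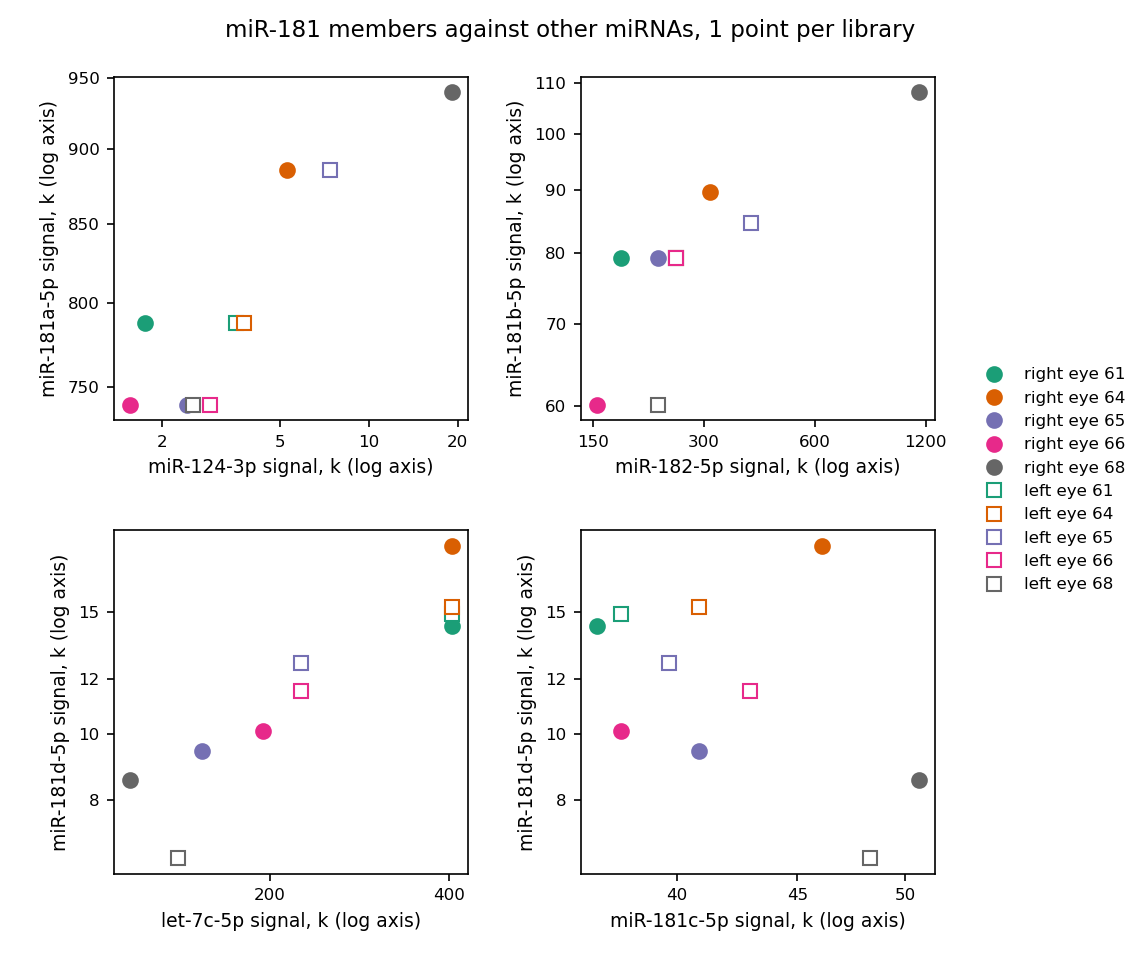
Signal in k (log axes) of miR-181a-5p against miR-124-3p, miR-181b-5p against miR-182-5p, miR-181d-5p against let-7c-5p and miR-181d-5p against miR-181c-5p, with 1 point per library (filled circles right eyes, open squares left eyes, colours title numbers). Left eyes 61, 64 and 66 lie on one point in the plot of miR-182-5p, and right eye 68 is at the top right of both upper plots.

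Markers of other cell types moved with miR-181d-5p as well. The leukocyte markers summed to 11.5, 10.6, 14.1, 16.1 and 13.3 k in right eyes 61, 64, 65, 66 and 68, and to 11.2, 10.9, 12.3, 12.004 and 16.4 k in left eyes, with a rho of -0.94 to miR-181d-5p (-0.97 without right eye 68). Of the 5 leukocyte markers 4 had a negative rho, down to -0.95, and 1 had a positive rho, of 0.60. None was at 0 in all libraries of a side. Most of the leukocyte sum is miR-150-5p, with 6.30 to 9.43 k, a range that overlaps the levels of miR-181d-5p. Where their levels meet, a higher rank step for either can push the other to a lower step. The rho of miR-181d-5p with this marker and with the sum is thus not free of the normalisation. With the endothelial sum, 198 to 342 k in right and 201 to 267 k in left eyes, rho was -0.85, and both markers were negative. The surface epithelium, cornea and lens markers summed to 24.7 to 205 k in right and 64.3 to 245 k in left eyes. With this sum rho was 0.78, and 5 of 7 markers were positive, with single values from -0.08 to 0.80. All 7 of these markers had a lower fitted value in right eyes (median difference -1.04 on the log2 scale), and not 1 passed in limma (lowest adjusted p = 0.967). With the smooth muscle and fibroblast sum rho was -0.79 (-0.97 without right eye 68), although 2 of the 4 markers were positive. With the neuron sum it was -0.58 (-0.48), and with the photoreceptor sum 0.21 (0.55). The part of these cell types in the spread of miR-181d-5p was not tested, and number and cell makeup cannot be told apart with 5 numbers.

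Lists of miRNAs from the settings in which miR-181 is known to act gave no calls between sides. Of 10 miRNAs of endothelium and NF-kB signalling, 7 had a higher and 3 a lower fitted value in right eyes, with a median log2 fold change of 0.05. Here miR-126a-3p, which holds back leukocyte adhesion, had 0.06 and miR-10a-5p, which restrains NF-kB in endothelium, had -0.23. Of 5 lymphocyte miRNAs, which share miR-146a-5p and miR-155-5p with that list, all 5 had a higher value and the median was 0.08. Here miR-150-5p of mature lymphocytes had 0.02 and miR-142a-3p, found throughout blood cells, 0.19. Of 7 miRNAs of inner retina and neurons 3 had a higher and 4 a lower value, with a median of -0.02. Here miR-9-5p had 0.30 and miR-124-3p -0.02. None of these miRNAs passed in limma (lowest adjusted p = 0.967), beside 0% of all 588.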

How the data were processed

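Small RNA was sequenced from right and left eyes with a TruSeq kit, per the labels' protocols. These mention retinae, whereas the sample labels give RPE/choroid/sclera, which is followed here. The deposited signal was made by the authors with Bowtie and Partek on GRCm38 (mm10), per the submitters' processing notes. How it was normalised was not stated. Only 7.31% of signal values above 0 were whole within 0.001, so no count model was used, and no interval or floor for counting is given.

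Values were analysed as log2(signal + 1), which understates changes of low miRNAs, for 588 miRNAs with a mean of at least 10. The comparison of right with left used limma 3.58.1 (R 4.3.3) with the title number as a block and a variance trend. Tests were two-sided and p-values were adjusted by Benjamini-Hochberg over all miRNAs. The numbers were compared by the moderated F test of the same fit. The labels' protocols set each treated eye against the contralateral one, and the pairing was taken from the title. Nothing says that equal numbers mark one animal. The 3p arms were paired with 5p arms by name. The fits were tested on simulated data. Alternatives were another pseudocount, other filters, median centring, no trend, no block and each number left out.

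Named miRNAs are the members, the 3p arms, the 3 most alike per member, their neighbours in level and fixed lists. The members and lists were chosen with earlier results of these data known. Sequences were matched to RefSeq by name and start for all 10 miR-181 entries. Alignments used Biopython 1.88.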

Additional observations from a re-analysis of the deposited data

Results flagged for a closer look

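Of 22 checks of the miR-181 arms and the summed family on the log2 scale, 2 had a single eye well away from the other 4 eyes on that side. For independent values chance gives about 1 in 20, and rank steps tie many values here. Left eye 68 was apart in miR-181b-5p, at 60162 against 79250 to 84548 in the other left eyes, while right eye 66 had the same 60162. Left eye 64 was apart in miR-181a-2-3p, at 7383 against 8112 to 8319 in the other left eyes.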

How the results depend on the processing

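The rank steps and the 5 pairs limit what could be seen. The alternative fits each covered all 4 members and gave 44 results for them. None of these was a call between right and left eyes, with adjusted p between 0.880 and 1 in limma. Without the title number as a block (no replicate block) the log2 fold changes cannot change, as each number has 1 eye of each side. They were 0.05 for miR-181a-5p, 0.11 for miR-181b-5p, 0.01 for miR-181c-5p and -0.0002 for miR-181d-5p. Only the p-values could differ, and the adjusted p in limma was 0.997 for the first 3 and 1 for the last, with 0 miRNAs called. As a check on the pairing, the deviations from the mean of each side correlated between eyes sharing a number at 0.12, 0.45, 0.01, -0.13 and 0.28, and 2 of 5 left eyes correlated best with their own number.

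With single numbers left out, the log2 fold change ran from -0.0226 (without 68) to 0.13 for miR-181a-5p, from -0.0782 (without 68) to 0.23 for miR-181b-5p, from -0.0260 (without 64) to 0.0628 for miR-181c-5p and from -0.0942 to 0.11 for miR-181d-5p, where it was above 0 without 61, 65 or 66 and, at 0.000679, with median centring. Among 3p arms, chosen for this after seeing the data, it ran from -0.29 (without 66) to 0.27 for miR-181b-2-3p and from -0.0656 to 0.0528 for miR-181c-3p. The right minus left difference in log2 ratio ran from -0.17 to 0.0555 for miR-181a-5p over miR-181b-5p, from -0.0228 to 0.12 for miR-181a-5p over miR-181c-5p, from -0.0783 to 0.17 for miR-181b-5p over miR-181c-5p, and from -0.10 (without 65) to 0.0944 for miR-181c-5p over miR-181d-5p. The first 3 turned direction without number 68. The cause was not tested. The exact p of 4 pairs cannot go below 0.125.

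The count of miRNAs passing the F test between numbers, 7, was 23 with a mean signal of at least 100, 12 with median centring, 0 without the trend (137 had an unadjusted p under 0.05 with it), and 0 to 22 with a number left out (22 without 66 and 1 without 65). The adjusted p of miR-181d-5p in that test ran from 0.0599 without number 66 to 0.297 without number 68. Pairs of arms called between sides numbered 0 to 1 with a number left out.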
